A study of Mus musculus with 6 samples.

Results

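The 7 Pax genes Pax1, Pax2, Pax3, Pax6, Pax7, Pax8 and Pax9 were followed through maps of histone marks in 6 mouse tissue sections. They are listed as PAX1, PAX2, PAX3, PAX6, PAX7, PAX8 and PAX9 and were matched by symbol, ignoring case, among the 19378 genes of the longest table. All 7 had a row in 5 sections, and 6 of them in the brain, where Pax3 was not analysed. The maps were made by placing a tissue section on a DNA array whose spots carry barcode pairs, binding an antibody to a histone mark, and letting protein A-Tn5 cut and tag the marked chromatin above each spot. H3K27ac was mapped in adult paws with collagen-induced arthritis (42 days), a model in which immunisation against cartilage collagen inflames the joints, and in adult control paws, also labelled 42 days. H3K4me3 was mapped in the wild-type adult brain. H3K27me3, H3K27ac and H3K4me3 were each mapped in a section of the whole wild-type embryo at E11.5. Both paws were fixed, decalcified, embedded in paraffin and cut at 4 µm around the talus, the brain was frozen and cut at 20 µm, and the embryos were frozen and cut at 16 µm. The sources used here do not give strain, sex or number of animals.

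Pax genes encode transcription factors that bind DNA through a paired domain and direct the building of organs in the embryo. Pax1 and Pax9 act in the sclerotome, from which vertebrae form, and in the pharyngeal pouches, and Pax9 also in teeth and limbs. Pax2 and Pax8 act in the kidney, with Pax2 also in the eye, ear and midbrain and Pax8 in the thyroid. Pax3 and Pax7 act in the dorsal neural tube, the neural crest and muscle progenitors, and Pax7 marks the stem cells of adult muscle. Pax6 acts in the eye, the forebrain and the pancreatic islets. H3K4me3 marks active and poised promoters, H3K27ac marks active promoters and enhancers, and H3K27me3, laid down by Polycomb repressive complexes, marks silenced developmental genes, of which Pax genes are textbook examples.

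There was 1 section per group, so no difference below has a replicate and none was tested. The reads behind each value were recovered from the deposited table, because the deposited values of a gene depended on its place in the table. Recovered reads numbered 5344438 over 943 spots in the arthritis paw, 5981684 over 554 in the control paw and 2036521 over 1200 in the brain. The embryo sections held 749650 (H3K27me3, 254 spots), 548923 (H3K27ac, 251 spots) and 403483 (H3K4me3, 248 spots). Intervals are 95% counting intervals (exact Poisson, or exact binomial for a ratio), cover counting error only, and say nothing about other animals. A spot lies under several cells, so fewer marked cells and fewer reads per cell cannot be told apart.

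A level below is a gene's reads over the mean of the 9471 genes that all 6 sections list, so that 1 is the mean gene. A percentile is the gene's place among all genes of its own section, of which there were 11130 in the arthritis paw, 19378 in the control paw, 11345 in the brain, then 19046, 18943 and 18066 in the embryo for H3K27me3, H3K27ac and H3K4me3. Neither is per length, since the sources used here do not give the counted interval, so a gene is compared with itself across sections. Olfactory receptor genes, whose expression is known mainly from olfactory neurons, give a background. Their median percentile was 18.0 in the arthritis paw, 8.33 in the control paw, 16.7 in the brain, then 17.2, 20.4 and 15.5 in the embryo for H3K27me3, H3K27ac and H3K4me3.

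The promoters of Pax6 and Pax9 are printed because these genes differed most between the paws, and that of Pax8 because its rank came close to that of olfactory receptor genes in the arthritis paw. Each line holds the 250 bases before a RefSeq transcription start (GRCm38.p6), with CG pairs, the sites of CpG methylation, in capitals. The searched motif was CG, which reads the same on both strands, so each pair is counted once.
Pax6 start 1, chr2:105668646-105668895, plus strand: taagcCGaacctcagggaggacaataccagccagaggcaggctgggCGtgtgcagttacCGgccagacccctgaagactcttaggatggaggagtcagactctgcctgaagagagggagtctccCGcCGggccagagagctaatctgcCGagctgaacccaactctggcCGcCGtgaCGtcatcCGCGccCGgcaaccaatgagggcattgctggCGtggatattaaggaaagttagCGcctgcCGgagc
Pax6 start 2, chr2:105682213-105682462, plus strand: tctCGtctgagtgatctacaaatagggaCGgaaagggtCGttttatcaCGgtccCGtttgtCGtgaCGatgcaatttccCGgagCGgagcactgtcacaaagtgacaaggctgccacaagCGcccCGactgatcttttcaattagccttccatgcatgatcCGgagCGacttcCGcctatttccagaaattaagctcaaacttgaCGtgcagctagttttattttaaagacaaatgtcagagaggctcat
Pax9, chr12:56695221-56695470, plus strand: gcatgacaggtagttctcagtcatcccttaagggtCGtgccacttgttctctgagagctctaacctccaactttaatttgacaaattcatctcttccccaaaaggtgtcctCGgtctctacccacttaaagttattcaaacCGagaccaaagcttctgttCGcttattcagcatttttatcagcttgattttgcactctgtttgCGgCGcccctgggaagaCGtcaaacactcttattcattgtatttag
Pax8, chr2:24475600-24475849, minus strand: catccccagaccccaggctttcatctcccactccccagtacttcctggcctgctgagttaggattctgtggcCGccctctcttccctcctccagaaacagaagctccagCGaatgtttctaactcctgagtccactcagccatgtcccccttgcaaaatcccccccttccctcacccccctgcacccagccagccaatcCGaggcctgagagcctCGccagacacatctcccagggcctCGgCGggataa
The Pax6 windows held 15 CG pairs each, the Pax9 window 7 and the Pax8 window 6. Of the other matched starts, Pax1 had 10, Pax7 had 13, and the 3 starts of Pax2 had 5, 20 and 25. Among the 32851 promoters of the table, the median was 6 and 37.8% held 10 or more, against 6 of the 9 windows of these genes. The string TATAAA, searched on both strands, was in 0 of the 9 windows and in 12.4% of all promoters. The sequences describe the starts, and no value below was read at them, since the deposited values are per gene.

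Pax6, the regulator of eye and forebrain, had 5516 reads in the arthritis paw, 748 in the control paw, 516 in the brain, then 265, 85 and 50 in the embryo for H3K27me3, H3K27ac and H3K4me3. Its level was 10.8 (10.5 to 11.1) in the arthritis paw, 1.69 (1.57 to 1.81) in the control paw, 2.61 (2.39 to 2.84) in the brain, then 4.67 (4.13 to 5.27), 2.01 (1.60 to 2.48) and 1.63 (1.21 to 2.14) in the embryo in that order of marks. The arthritis paw was highest and embryo H3K27me3 next, both apart from every other section, while the intervals of brain and embryo H3K27ac, of embryo H3K27ac and control paw, and of control paw and embryo H3K4me3 overlapped. In percentiles Pax6 lay at 99.6 in the arthritis paw, 93.2 in the control paw, 96.4 in the brain, then 98.1, 94.5 and 93.4 in the embryo. The arthritis sum is a lower bound, because 18.1% of those reads lie where the recovery is no longer taken as exact.

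Pax9, a gene of sclerotome, teeth and pharyngeal pouches, had 3809 reads in the arthritis paw, 333 in the control paw, 175 in the brain, then 45, 24 and 19 in the embryo for H3K27me3, H3K27ac and H3K4me3. Its level of 7.45 (7.22 to 7.69) in the arthritis paw stood apart from the other 5, which ran from 0.567 (0.363 to 0.844) for embryo H3K27ac to 0.884 (0.758 to 1.02) in the brain, each overlapping its neighbour in the order. The ratio of the highest to the lowest level, 13.1, was the widest of the 7 genes. Pax9 lay at percentile 99.1 in the arthritis paw, 80.0 in the control paw, 69.5 in the brain, then 82.4, 72.4 and 78.6 in the embryo.

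Pax1, its relative in the sclerotome, had 248 reads in the arthritis paw, 127 in the control paw, 91 in the brain, then 14, 19 and 5 in the embryo for H3K27me3, H3K27ac and H3K4me3. Its level was 0.485 (0.427 to 0.550) in the arthritis paw, 0.287 (0.239 to 0.341) in the control paw and 0.460 (0.370 to 0.564) in the brain, and between 0.163 (0.0528 to 0.379) and 0.449 (0.270 to 0.701) in the embryo. No section was above the mean gene, and every neighbouring pair in the order overlapped. Sections further apart did not all overlap, and the arthritis paw lay above the control paw. The percentile of Pax1 ranged from 35.8 in the brain to 65.1 for embryo H3K27ac.

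Pax2, needed for the kidney, optic stalk and inner ear, had 1137 reads in the arthritis paw, 1359 in the control paw, 607 in the brain, then 116, 84 and 53 in the embryo for H3K27me3, H3K27ac and H3K4me3. It was the member whose level moved least, 1.78-fold between the highest and the lowest section. The level was 2.22 (2.10 to 2.36) in the arthritis paw, 3.07 (2.91 to 3.24) in the control paw, 3.07 (2.83 to 3.32) in the brain, then 2.04, 1.98 and 1.72 in the embryo. Control paw and brain lay above the other 4 sections, which overlapped along the order. Its percentile was above 90 in every section, from 92.2 in the arthritis paw to 97.5 in the brain.

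Pax8, a thyroid and kidney gene, had 143 reads in the arthritis paw, 123 in the control paw, 99 in the brain, then 6, 9 and 7 in the embryo for H3K27me3, H3K27ac and H3K4me3. The brain level of 0.49998 (0.406 to 0.609) was above those of the paws, 0.280 (0.236 to 0.330) in arthritis and 0.278 (0.231 to 0.331) in the control, and the embryo levels ran from 0.106 (0.0388 to 0.230) to 0.228 (0.0915 to 0.469). Equal levels in the paws gave unequal percentiles, 20.1 in the arthritis paw and 44.2 in the control paw, where the tables differ in their genes. The rank in the arthritis paw is close to the 18.0 of the olfactory receptor genes.

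Pax3, which starts neural crest and limb muscle development, had 469 reads in the arthritis paw, 559 in the control paw, and 30, 39 and 107 in the embryo for H3K27me3, H3K27ac and H3K4me3. It was the only member with more reads for H3K4me3 than for both other embryo marks, although that section was the shallowest. The level there was 3.48 (2.85 to 4.20), apart from the other 4 sections. These lay at 0.918 (0.836 to 1.00) in the arthritis paw, 1.26 (1.16 to 1.37) in the control paw, 0.529 (0.357 to 0.755) for embryo H3K27me3 and 0.922 (0.655 to 1.26) for embryo H3K27ac. Percentiles were 72.9 in the arthritis paw, 89.9 in the control paw, and 72.5, 84.6 and 97.1 in the embryo.

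Pax7, the marker of muscle stem cells, had 1139 reads in the arthritis paw, 895 in the control paw, 241 in the brain, then 50, 38 and 48 in the embryo for H3K27me3, H3K27ac and H3K4me3. Its level was 2.23 (2.10 to 2.36) in the arthritis paw, 2.02 (1.89 to 2.16) in the control paw, 1.22 (1.07 to 1.38) in the brain, then 0.881 (0.654 to 1.16), 0.898 (0.635 to 1.23) and 1.56 (1.15 to 2.07) in the embryo. Each section overlapped its neighbour in the order, but sections further apart did not all overlap. Both paws lay above the brain and above embryo H3K27me3 and H3K27ac. Percentiles ran from 82.2 in the brain to 94.6 in the control paw.

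**Figure D1:**
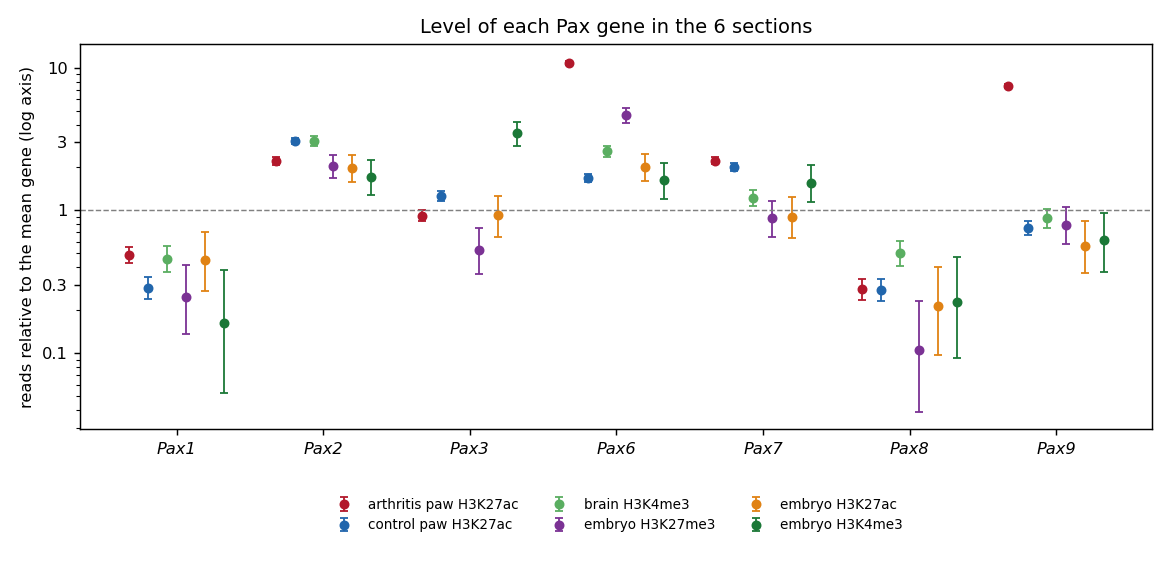
Level of each Pax gene (reads relative to the mean gene, log axis) in the 6 sections, with 95% counting intervals; the dashed line is the mean gene. Pax6 at 10.8 (a lower bound) and Pax9 at 7.45 in the arthritis paw, and Pax3 at 3.48 for embryo H3K4me3, stand apart from the same genes' other sections.

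Taken by section, the median percentile of the genes was 92.2 in the arthritis paw, 89.9 in the control paw, 75.9 in the brain (6 genes), then 82.4, 84.1 and 93.0 in the embryo for H3K27me3, H3K27ac and H3K4me3. Set against the mean of its own section, 4 of the 7 were above it in the arthritis paw, 5 of 7 in the control paw, 3 of 6 in the brain and 4 of 7 in each embryo section. The share of all genes above their section's mean was 26.4%, 22.2%, 29.4%, 20.6%, 22.7% and 17.5% in the same order of sections. The median percentile for H3K27me3 was the lowest of the 3 embryo sections. Sections differ in the genes they list, so these medians are not on a common scale. Ranked by the deposited values in place of reads, the medians were 88.2 in the arthritis paw, 93.7 in the control paw, 59.4 in the brain, then 70.7, 74.6 and 76.9 in the embryo. The deposited percentile was below the one from reads for all members in the arthritis paw, the brain and embryo H3K27me3 and H3K4me3, for 6 of 7 with embryo H3K27ac, and for 4 of 7 in the control paw.

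**Figure D2:**
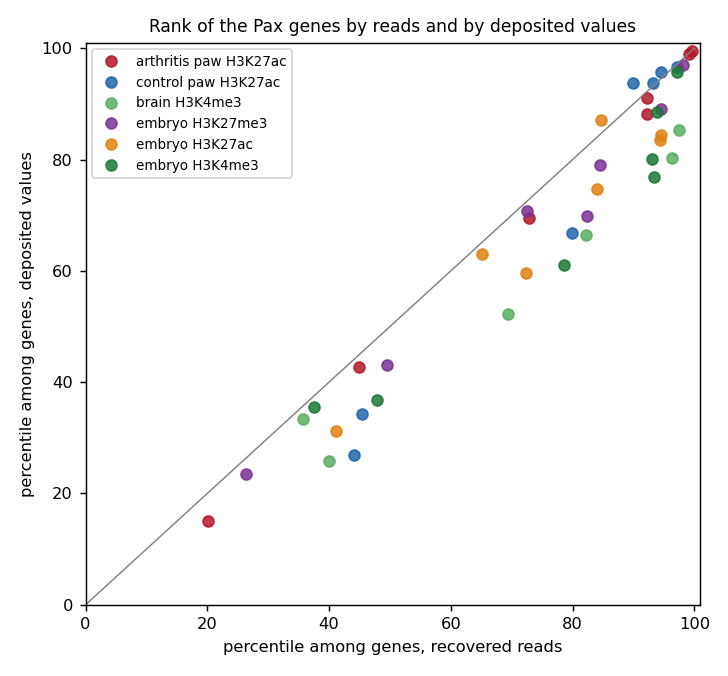
Percentile of each Pax gene among all genes of its section, from recovered reads (horizontal axis) and from the deposited values (vertical axis), 1 point per gene and section; the line marks equal percentiles. Most points lie under the line. The medians by reads and by deposited values were 75.9 and 59.4 in the brain, and 93.0 and 76.9 for embryo H3K4me3.

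Ratios between sections were taken on the log2 scale after adding 0.1 to the level relative to the genes both sections hold, and were centred on the median gene. A gene 2-fold or more from that median is called higher or lower. The 6 comparisons share sections, so their calls are not independent of each other. Before centring, the median gene lay at 0.66 for the brain over the embryo and between -0.12 and 0.20 in the other 5 comparisons. A centred ratio is thus relative to the median gene, while the levels above are relative to the mean gene, and for the brain the readings differ.

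**Figure D3:**
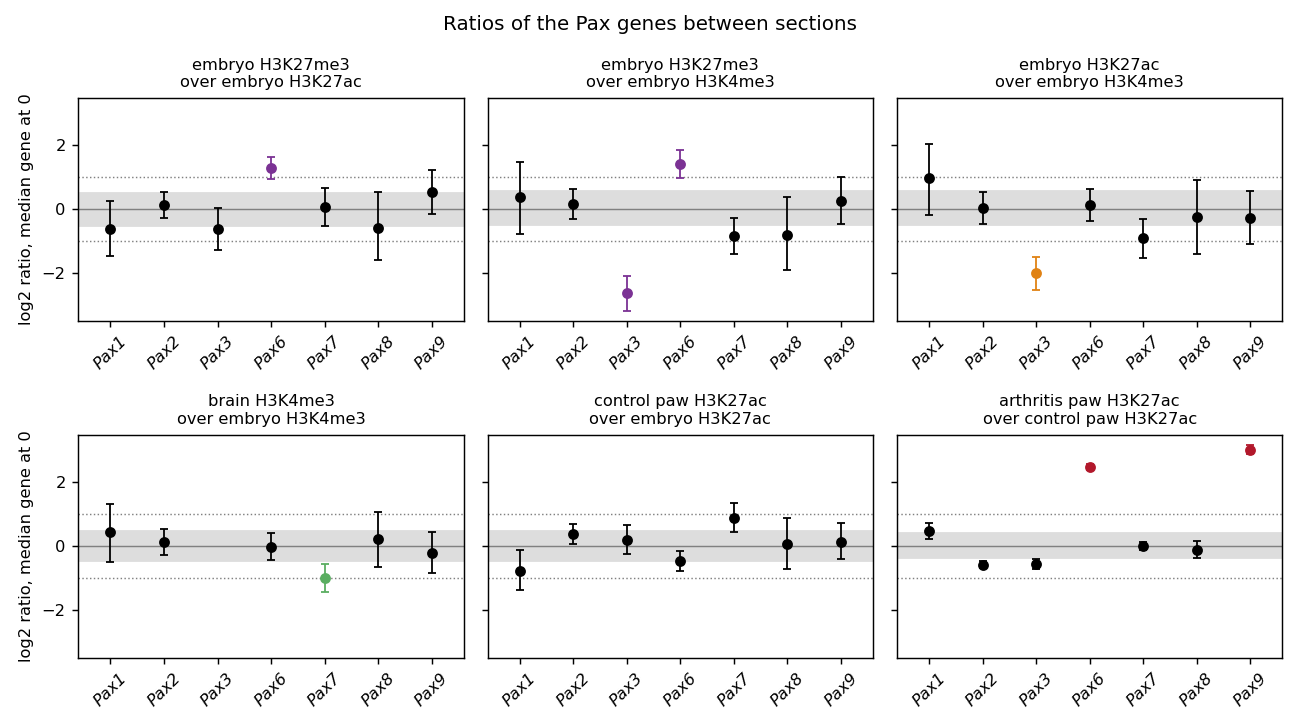
Log2 ratios of the Pax genes in the 6 comparisons, with the median gene at 0 and 95% counting intervals; the grey band holds the interquartile range of all genes and dotted lines mark 2-fold. Coloured points are past 2-fold: Pax6 (a lower bound) and Pax9 in the paws, Pax6 and Pax3 among the embryo marks, and Pax7 in the brain.

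The paws ask which of these genes differ in H3K27ac in an arthritic joint. Pax9 and Pax6 were higher in the arthritis paw, and the other 5 genes were within 2-fold. Pax9 lay at a log2 ratio of 3.01 (2.87 to 3.16). Its level relative to shared genes was 7.93 in the arthritis paw and 0.823 in the control paw, a 9.64-fold difference before centring. Of its arthritis reads, 6.04% lie where the recovery is no longer taken as exact. The interval covers only the counting of the reads recovered. Pax6 lay at 2.46, from 11.49 in the arthritis paw and 1.848 in the control paw, or 6.22-fold. Its arthritis reads are a lower bound, so the level, fold and ratio from recovered reads are minimum values, and the interval of 2.36 to 2.57 covers only the counting of the reads recovered. With the deposited values the Pax6 ratio was 2.06. Among all 11130 genes compared, 9.84% were called higher and 9.04% lower, against 2 and 0 of the 7. Pax9 was above 99.0% of all genes in this ratio and Pax6 above 98.0%.

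The rest lay at -0.60 (-0.71 to -0.48) for Pax2, -0.57 (-0.73 to -0.40) for Pax3, 0.47 (0.22 to 0.71) for Pax1, -0.13 (-0.40 to 0.14) for Pax8 and -0.01 (-0.13 to 0.11) for Pax7. The intervals of 5 members left out 0, and the median of the 7 was -0.01. The share of all genes whose interval leaves out 0 was not computed. Counting intervals are narrow at this depth, so the 5 cannot be read as particular to the members. Odd and even array columns, which split each section into interleaved parts, gave 2.43 and 2.48 for Pax6 and 3.005 and 3.001 for Pax9. When only the share of spots with a read was compared, the Pax6 ratio was 0.76 and no longer past 2-fold, and that of Pax9 was 1.38. At this depth that measure had little room for Pax6, which had a read in 97.7% of arthritis spots and 67.3% of control spots, while Pax9 had 92.7% and 40.4%.

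The 2 genes were high over the whole arthritis section. Per 1000 spot reads, Pax6 had 1.16 (1.11 to 1.20), 0.999 (0.952 to 1.05) and 0.913 (0.867 to 0.961) in the first, middle and last of 3 bands of array rows of the arthritis paw, against 0.128, 0.113 and 0.134 in the control paw. Pax9 had 0.827 (0.788 to 0.868), 0.711 (0.672 to 0.752) and 0.570 (0.533 to 0.608) in the arthritis paw, against 0.0636, 0.0530 and 0.0520 in the control paw. The arthritis values of Pax6 are lower bounds here too. Each band of the arthritis paw was above each band of the control paw. Spot reads are those of all genes of a section, 11130 in the arthritis paw and 19378 in the control paw. The size of this gap is therefore not that of the ratios over shared genes. Within the arthritis paw both genes were lower toward the last rows, with a log2 ratio of the first over the last band of 0.34 for Pax6 and 0.54 for Pax9. Over 202 genes of 2500 to 8000 reads in that section, a range chosen after the values were seen, the median was 0.09 and the middle range was -0.03 to 0.21. Pax6 was above 87.1% of them and Pax9 above 96.0%. Along 3 bands of array columns of the arthritis paw the values were 0.944, 1.03 and 1.13 for Pax6 and 0.656, 0.659 and 0.816 for Pax9, highest in the last band. The sources used here give rows and columns no anatomical label.

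**Figure D4:**
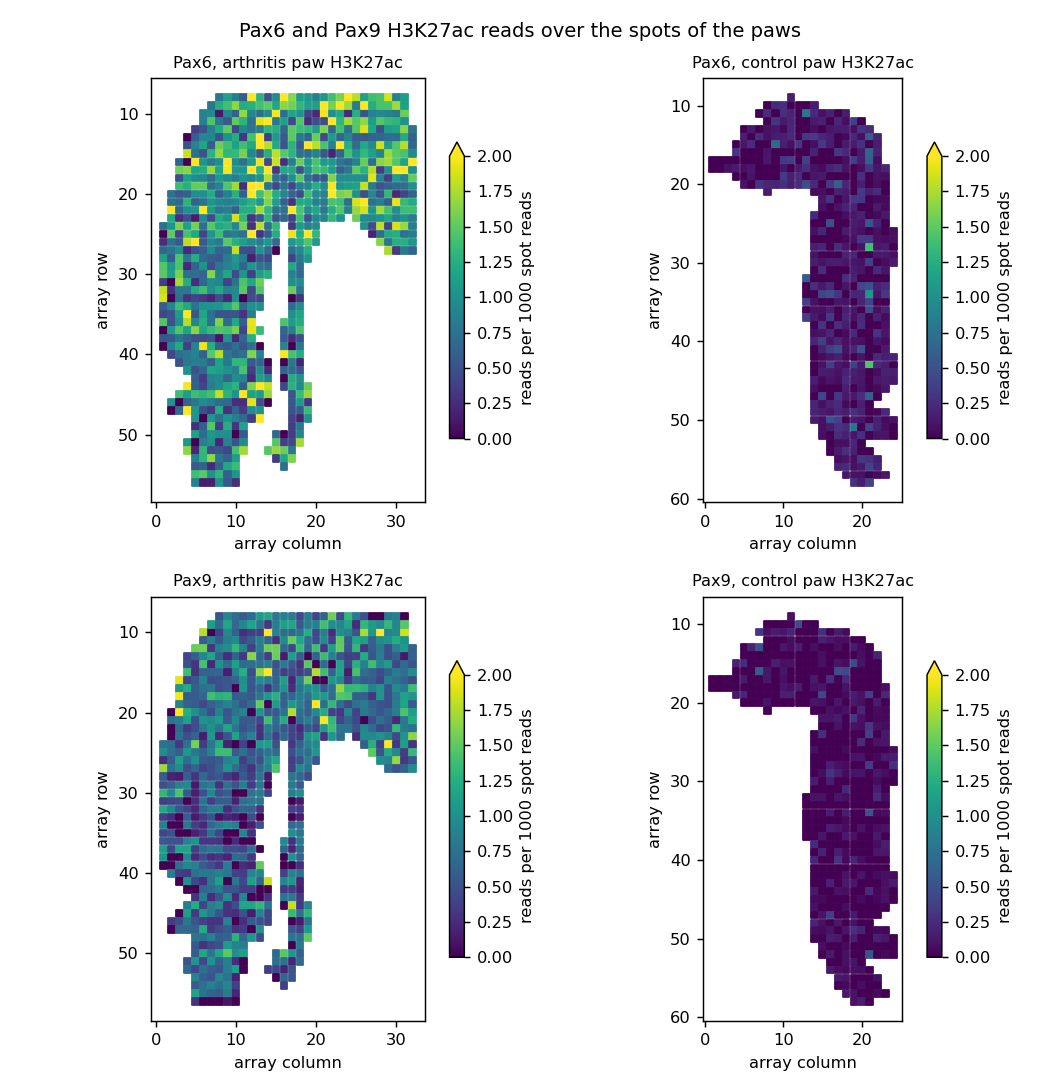
Reads per 1000 spot reads of Pax6 (top) and Pax9 (bottom) at each array spot of the arthritis paw (left) and the control paw (right). The colour scale ends at 2. Spot reads are those of all genes of a section, and the paws differ in the genes they list. Both genes are bright over the whole arthritis section and dark over the control section, where the 3 bands of rows hold 0.113 to 0.134 for Pax6 and 0.0520 to 0.0636 for Pax9.

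Moran's I, which is above 0 when neighbouring spots resemble each other, was 0.0833 for Pax6 and 0.0938 for Pax9 in the arthritis paw, where genes of like depth had medians of 0.0220 and 0.0176. In the control paw it was 0.00125 for Pax6 and -0.00475 for Pax9, where genes of like depth had medians of 0.00200 and -0.00172. Both genes had fewer reads there, 748 and 333 against 5516 and 3809, so Moran's I cannot be compared directly between the paws. Pax7 had 0.0475 in the arthritis paw, against a median of 0.00238 for genes of like depth. Such values were not confined to the arthritis paw: for embryo H3K27me3 Pax9 had 0.0737 and Pax6 0.0612, above the upper quartiles of 0.0227 and 0.0293 of genes of like depth, and in the control paw Pax1 had 0.0489, above 0.0128. Members above that quartile numbered 3 in the arthritis paw, 1 in the control paw and 3 in the brain. In the embryo they numbered 3, 0 and 1 for H3K27me3, H3K27ac and H3K4me3. A share of the genes of like depth lies above their upper quartile by definition, so these counts do not set the members apart from other genes. The other members showed no gradient along the rows beyond their counting intervals. Across spots, the correlation between pairs of members stayed between -0.12 and 0.22 in all sections, with few reads per spot behind most points, and it is given as a description of 248 to 1200 spots.

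**Figure D5:**
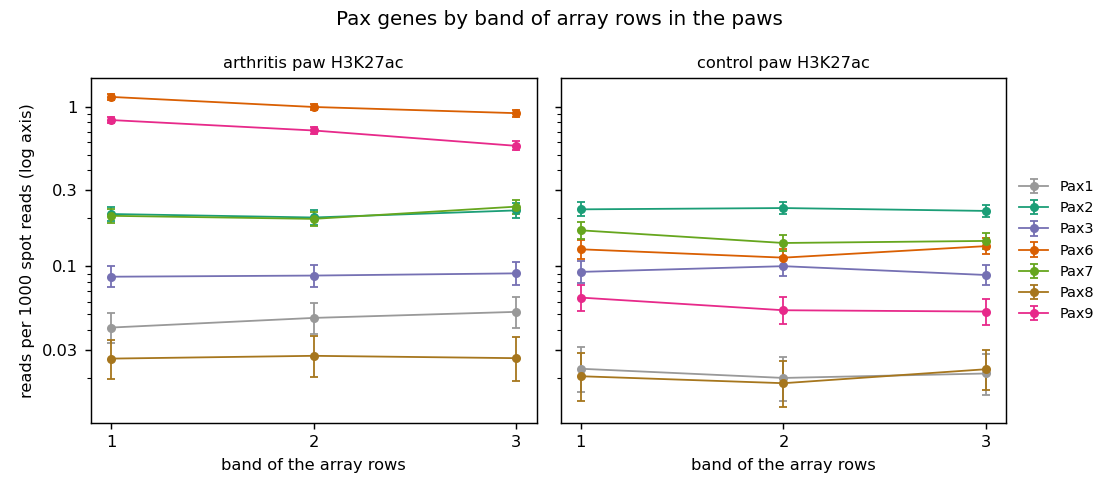
Reads per 1000 spot reads (log axis) of the 7 Pax genes in each of 3 bands of array rows, with 95% counting intervals. The arthritis paw is left and the control paw right. Spot reads are those of all genes of a section, and the paws differ in the genes they list. In the arthritis paw Pax6 runs 1.16, 0.999, 0.913 and Pax9 runs 0.827, 0.711, 0.570, and the other lines are flat within their intervals.

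Between the paws, no gene beside Pax6 or Pax9 on the chromosome that was analysed in both showed a difference as large as theirs. Elp4, a subunit of the Elongator complex next to Pax6, had 104 reads in the arthritis paw and 163 in the control paw, or 0.217 and 0.528 times the section mean. On the other side of Pax6, Rcn1 was not analysed in the arthritis paw. Nor was Immp1l, the gene after Elp4, which had 3170 reads in the control paw, 10.3 times the section mean. Neither gene could be compared between the paws. Slc25a21, a mitochondrial carrier gene next to Pax9, had 254 reads in the arthritis paw and 230 in the control paw. That was 0.529 and 0.745 times the section mean, and Nkx2-9 on the other side of Pax9 had 0.546 and 0.489. These section means are over 11130 and 19378 genes, so small differences on this scale have no direction. In the control paw, Pax6 was 2.42 times the section mean and 1.848 relative to shared genes. No gene in the same section had the reads of Pax6 or Pax9 spot by spot. In the arthritis paw the closest matched 13.7% of the spots of Pax6 and 17.5% of those of Pax9. Among the embryo marks, some neighbours moved with the called gene and others did not. For H3K4me3, H3K27me3 and H3K27ac, Sgpp2 near Pax3 had 3.54, 0.483 and 0.863 times the section mean. Epha4, next to Pax3, had 0.403, 0.762 and 0.725. In the same order of marks, Them7 near Pax6 had 0.851, 2.03 and 0.690, and Elp4 had 8.69, 0.127 and 0.794.

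Of the retinal determination network, whose Eya co-activators and Dach and sine oculis-type factors work with Pax factors in organ primordia, 7 of 10 genes were compared in the paws, 1 of them higher, 1 lower and 5 within 2-fold. Eya3 lay at 2.41 (2112 reads in the arthritis paw, 278 in the control paw) and Eya4 at -1.83 (978 and 2814). Of the eye, forebrain and islet genes that act with Pax6, 15 of 20 were compared and 1 was called each way. Sox2, a stem cell and eye gene, lay at 1.40 (1359 and 376 reads) and Rax, which sets up the eye field, at -2.55 (1035 and 4907). Sclerotome and pharyngeal genes of Pax1 and Pax9 had 0 higher and 1 lower of 13, the cartilage regulator Sox9 at -1.18 (330 and 630 reads). Muscle and neural crest genes of Pax3 and Pax7 had 1 higher and 2 lower of 12: Zic1 at 1.30 (1805 and 549), Msx2 at -2.23 (281 and 1163) and Mitf, the melanocyte regulator, at -1.85 (366 and 1128). None of 14 kidney, ear and thyroid genes of Pax2 and Pax8 was called. The list medians were -0.23, -0.35, -0.25, 0.10 and 0.11 in the order given, with the median of all genes at 0.

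In the embryo, H3K27me3 over H3K27ac asks how a repressive and an active mark of the same lysine divide these genes. Pax6 was higher for H3K27me3, at 1.28 (0.93 to 1.64), from a level relative to shared genes of 6.62 for H3K27me3 and 2.90 for H3K27ac. The other 6 genes were within 2-fold: Pax9 at 0.53 (-0.15 to 1.22), Pax2 at 0.13 (-0.27 to 0.54), Pax7 at 0.06 (-0.53 to 0.66), Pax8 at -0.59 (-1.60 to 0.53), Pax1 at -0.62 (-1.48 to 0.27) and Pax3 at -0.64 (-1.29 to 0.02), all with intervals that hold 0. Of 18653 genes, 12.3% were called higher and 11.6% lower, against 1 and 0 of the 7. With 20 or more reads in the larger section the shares were 19.8% and 17.7% of 9010 genes. By the share of spots with a read the Pax6 ratio was 0.82 and with a pseudocount of 1 it was 1.00, just short of 2-fold.

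Medians of the companion lists lay between -0.32 and 0.08. The retinal determination network had 0 higher and 2 lower of 10 (median 0.08), with Eya4 at -1.496 (38 reads for H3K27me3, 91 for H3K27ac). Eye, forebrain and islet genes had 2 higher and 0 lower of 20 (median -0.02), Olig2, of motor neuron and oligodendrocyte progenitors, at 2.55 (158 and 19 reads) and the cortical gene Emx2 at 1.4997 (142 and 38). Muscle and neural crest genes had 3 higher and 4 lower of 14 (median -0.32), from Tfap2a, a neural crest regulator, at -2.97 (176 and 1118) and Fgfr4, a receptor of muscle progenitors, at -2.73 (42 and 239) to Myod1 at 1.09 (44 and 15) and the neural tube gene Dbx1 at 2.00 (51 and 8). Kidney, ear and thyroid genes had 2 higher and 2 lower of 18 (median -0.18), with the thyroid factor Foxe1 at 2.27 (105 and 15), Sall1 at 1.39 (52 and 14) and the thyrotropin receptor gene Tshr at -2.05 (21 and 79). Sclerotome and pharyngeal genes had 0 higher and 1 lower of 15 (median -0.27), Nkx3-2, which Pax1 and Pax9 switch on in the sclerotome, at -2.66 (18 and 107).

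Set against H3K4me3, H3K27me3 was higher on Pax6 and lower on Pax3. Pax6 lay at 1.41 (0.98 to 1.85), from 6.38 for H3K27me3 and 2.21 for H3K4me3, and Pax3 at -2.63 (-3.19 to -2.09), from 0.723 and 4.74. Pax7 lay at -0.85 (-1.41 to -0.28), short of 2-fold with an interval that leaves out 0. The other 4 genes, Pax1 at 0.37, Pax9 at 0.25, Pax2 at 0.16 and Pax8 at -0.82, had intervals that hold 0. Of 17837 genes, 13.3% were called higher and 11.1% lower, against 1 and 1 of the 7. With 20 or more reads they were 23.5% and 15.4% of 8222 genes. By the share of spots the Pax6 ratio was 0.84, and the Pax3 ratio stayed past 2-fold in all 10 alternatives, between -2.88 and -1.76.

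Among the companion lists, large H3K4me3 sums set the extremes. Osr1, of the early kidney field, lay at -6.12 (5 reads for H3K27me3, 325 for H3K4me3), Lhx1, of the same field, at -5.05 (5 and 154) and Ret, the receptor of the ureteric bud, at 1.95 (95 and 11), in a kidney, ear and thyroid list with 3 higher and 4 lower of 18 (median 0.02). Myod1, the muscle determination gene, lay at -4.10 (44 and 423) in a muscle and neural crest list with 4 higher and 3 lower of 13 (median -0.14), which also holds Dbx1 at 1.78 (51 and 6) and Sox10 at 1.59 (44 and 6). Sclerotome and pharyngeal genes had 2 higher and 2 lower of 15 (median -0.10), among them Nkx3-2 at -2.66 (18 and 70), Meox2 at -2.63 (11 and 46), Bmp4 at 1.23 (47 and 9) and the thymus gene Foxn1 at 1.17 (150 and 33). Eye, forebrain and islet genes had 3 higher and 2 lower of 20 (median -0.19), with Olig2 at 2.19 (158 and 16) and Nkx2-2 at -1.26 (66 and 84), and the retinal determination network 0 higher and 2 lower of 10 (median 0.00), with Eya3 at -1.87 (30 and 62).

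Between the active marks, H3K27ac over H3K4me3, Pax3 was lower for H3K27ac at -2.01 (-2.54 to -1.49), from 1.28 for H3K27ac and 4.72 for H3K4me3. Its H3K4me3 section is the same as in the comparison before. Pax7 lay at -0.92 (-1.53 to -0.31) and Pax1 at 0.97 (-0.18 to 2.04), with 19 reads for H3K27ac and 5 for H3K4me3. Pax6 at 0.12, Pax2 at 0.03, Pax8 at -0.25 and Pax9 at -0.28 had intervals that hold 0. Of 17762 genes, 12.9% were called higher and 12.3% lower, against 0 and 1 of the 7, and with 20 or more reads 23.9% and 17.3% of 7186 genes. Without centring 17.8% of all genes were higher and 9.17% lower, and Pax1, at 1.17, passed 2-fold. Pax3 was past 2-fold in all 10 alternatives, between -2.44 and -1.39, and Pax1 passed it upward in 4 of 9.

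The muscle and neural crest list, to which Pax3 is tied, had 5 higher and 2 lower of 13 (median 0.07). Tfap2a lay at 4.07 (1118 reads for H3K27ac, 41 for H3K4me3), the glial and neural crest gene Sox10 at 3.17 (112 and 6), Msx2 at -1.58 (25 and 52) and Myod1 at -5.19 (15 and 423). Kidney, ear and thyroid genes had 3 higher and 3 lower of 18 (median -0.14), with Ret at 2.76 (136 and 11), the podocyte gene Nphs1 at 1.20 (62 and 16), Lhx1 at -4.91 (5 and 154) and Osr1 at -5.81 (6 and 325). Sclerotome and pharyngeal genes had 2 higher and 1 lower of 15 (median 0.10), eye, forebrain and islet genes 1 and 1 of 20 (median -0.31), and the retinal determination network 1 and 1 of 10 (median 0.23), Eya4 at 1.52 (91 and 19) and Eya3 at -2.17 (19 and 62).

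For H3K4me3, the adult brain was set against the E11.5 embryo, sections that differ in tissue, age and thickness. Relative to the median gene, Pax7 was lower in the brain at -1.03 (-1.45 to -0.58). Its level relative to the mean of the shared genes was 1.32 in the brain and 1.73 in the embryo, a log2 ratio of -0.36 before the median gene's 0.66 was subtracted, and well within 2-fold. With centring it was past 2-fold in 4 of the 10 alternatives, which ran from -1.20 to -0.48, so the call rests on the setting. Pax6 at -0.04 (-0.44 to 0.38), Pax2 at 0.11 (-0.28 to 0.52), Pax8 at 0.21, Pax9 at -0.23 and Pax1 at 0.43 had intervals that hold 0. Before centring the ratios of these 5 genes were all above 0, Pax2 at 0.77, the difference seen in its levels, and Pax1 at 1.10, past 2-fold. Of 11127 genes, 7.23% were called higher and 11.7% lower, against 0 and 1 of the 6. Without centring the shares were 31.4% and 5.72%, against 1 and 0 of the 6. In the brain, 81.4% of reads lay in even array columns, where the Pax7 ratio was -1.20, against -0.62 in odd columns. Its median depth per spot was 2653.5 in even columns and 589 in odd ones, and the part of this in the ratio was not tested.

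Genes of the companion lists with the widest brain difference were lower there. Myod1 lay at -5.08 (113 reads in the brain, 423 in the embryo), Osr1 at -4.73 (110 and 325), the kidney and nerve growth factor Gdnf at -4.04 (163 and 283) and Nkx3-2 at -2.83 (88 and 70). Eya3 lay at -2.20 (128 and 62), Msx2 at -1.79 (146 and 52) and Meox2 at -1.43 (170 and 46). Higher in the brain were Met, a receptor of migrating muscle precursors and neurons, at 1.89 (358 and 7) and Zic1, a gene of the dorsal neural tube and cerebellum, at 1.31 (672 and 24). Counts were 0 higher and 1 lower of 7 in the retinal determination network (median 0.04), 0 and 4 of 15 kidney, ear and thyroid genes (0.11), 0 and 2 of 13 sclerotome and pharyngeal genes (0.09), 2 and 2 of 12 muscle and neural crest genes (-0.06) and 1 and 1 of 17 eye, forebrain and islet genes (-0.23).

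For H3K27ac, the adult control paw was set against the embryo, sections that differ in tissue, age, fixation and thickness. No Pax gene was called. Pax7 was nearest above, at 0.86 (0.42 to 1.33), from 2.85 in the control paw and 1.31 in the embryo, and passed 2-fold in 2 of 10 alternatives. Pax1 was nearest below, at -0.78 (-1.40 to -0.13), from 0.404 in the control paw and 0.656 in the embryo. Pax6 lay at -0.49 (-0.80 to -0.16) and Pax2 at 0.36 (0.05 to 0.69), and Pax3 at 0.18, Pax9 at 0.12 and Pax8 at 0.06 had intervals that hold 0. Of 18943 genes, 10.2% were called higher and 11% lower. Without centring the shares were 14.1% and 8.64%, and Pax7, at 1.06, passed 2-fold.

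Around them, muscle and neural crest genes had 3 higher and 5 lower of 14 (median -0.40), with Msx2 at 1.78 (1163 reads in the control paw, 25 in the embryo), the muscle differentiation gene Myog at 1.60 (643 and 15), Fgfr4 at -3.34 (266 and 239) and Tfap2a at -4.55 (566 and 1118). Eye, forebrain and islet genes had 2 higher and 0 lower of 20 (median 0.02), Rax at 2.99 (4907 and 47) and the neurogenic gene Neurog2 at 1.65 (826 and 19). The retinal determination network had 2 higher and 0 lower of 10 (median 0.39), Six2 at 1.31 (243 and 6) and Eya4 at 1.28 (2814 and 91). Kidney, ear and thyroid genes had 2 higher and 5 lower of 18 (median 0.11), with the iodide transporter gene Slc5a5 at 1.92 (340 and 5), Lhx1 at 1.23 (199 and 5) and Ret at -2.24 (334 and 136). Sclerotome and pharyngeal genes had 0 higher and 1 lower of 15 (median 0.03), Nkx3-2 at -2.80 (165 and 107).

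By median percentile, marker genes of the labelled tissues separated the sections weakly or not at all. The sections differ in the genes they list and in the markers measured, so small differences in percentile have no direction. Neuron and glia markers had a median percentile of 81.2 in the brain (7 of 10 genes), against 76.9 in the arthritis paw, 76.2 in the control paw and 74.9 to 76.8 in the embryo. Bone, cartilage and skin markers lay at 59.2 in the arthritis paw (7 of 10) and 69.6 in the control paw, against 67.6 in the brain and 56.1 to 68.9 in the embryo. Embryo mesenchyme and blood markers did not mark the embryo: their median percentile was 65.5 for H3K27me3, 58.4 for H3K27ac and 47.0 for H3K4me3 there (8 of 8 genes), against 54.7 in the arthritis paw (6 of 8), 58.4 in the control paw and 70.7 in the brain (6 of 8). No measured marker was at 0 reads in any section. Between the paws, the bone, cartilage and skin markers had 1 higher and 0 lower of 7 (median 0.12).

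The genes with the most similar levels over the sections were found among 9465 genes by the distance of log2 levels, in log2 units. For Pax6 these were Il11ra2 (0.95) and the orphan nuclear receptor gene Esrrg (1.05), against a median distance of 6.26 over all candidates. For Pax9 they were the stress kinase gene Mapk12 (0.46) and Timd2 (0.64), against 4.12. Pax1 was nearest to Ccdc74a (0.30) and Coch (0.33), Pax2 to the transcription factor gene Nfia (0.27) and Ccdc171 (0.29), and Pax7 to the kinase gene Pak6 (0.59) and the adaptor gene Dab2 (0.68). Pax8 was nearest to Cstb (0.18), which encodes a protease inhibitor, and Pus7l (0.30). Pax3, over 5 sections, was nearest to Fgf13 (0.30) and Ap2m1 (0.57). No other Pax gene was considered in this search.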

How the data were processed

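The deposited values are a signal for each gene at each spot, quantile-normalised by the authors. The tools Bowtie2, featureCounts and MACS2 (no versions) and the builds hg19 and mm9 are named in the submitters' processing notes. The sources used here do not give their roles, the counted interval or the read filters. Each of the 6 tables is 1 section, and GEO's labels give its group.

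Reads were recovered from the deposited signal. In a spot, genes of equal count stand in the order of the control paw's table, so each fall in that order marks 1 more read. Recovery was taken as exact up to the first count held by fewer than 5 genes. A sum with over 10% of its reads beyond that is a lower bound. Between 92.9% and 95.4% of the total implied by the deposited values was recovered. Rank by rank, recovered and implied reads were equal for 99.1% of ranks in the arthritis paw and 98.8% in the control paw. They were equal for only 37.4% in the brain, and for 51.6%, 50.8% and 51.2% in the embryo for H3K27me3, H3K27ac and H3K4me3. The reason for the lower shares was not tested. The procedure was run on simulated data in which ties were given the same order. That check cannot show whether the deposited values follow this order.

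Levels, percentiles and log2 ratios (pseudocount 0.1) were computed with Python 3.11.15, numpy 2.4.6, scipy 1.17.1 and pandas 2.3.3. With 1 section per group there was no test. All 7 genes are described. From each companion list, up to 2 genes at each end of a comparison were eligible for naming, if called at 2-fold with 20 or more reads in the larger section, and for each Pax gene the 2 most similar genes. The Pax genes, the lists and the use of recovered reads were chosen with earlier results of these data known. Alternatives were the deposited values, pseudocounts of 1 and 0.01, even or odd array columns, leaving out columns 1, 5, 9, 13, 17 and 21, the deeper spots, the share of spots with a read, spots weighted equally, and leaving out genes with fewer than 20 reads. Ratios without centring were added after seeing the data. Promoter sequences are from RefSeq (GRCm38.p6), for 6 of the 7 genes. Its table was used only for these windows and for which genes neighbour each other.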

Additional observations from a re-analysis of the deposited data

How the results depend on the processing

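No paired analysis was possible because each group is 1 section and the replicate number only names it. For single Pax genes, 365 of 404 ratios under an alternative stayed within the counting interval of the reported value, and none that was called changed sign. The median ratio of the Pax genes in the paws was 0.17 in even columns and 0.17 without columns 1, 5, 9, 13, 17 and 21, against -0.01 with all columns. Median percentiles moved more. With the deposited values they were 88.20 in the arthritis paw, 93.69 in the control paw, 59.37 in the brain, and 70.70 for H3K27me3, 74.64 for H3K27ac and 76.93 for H3K4me3 in the embryo. With genes of fewer than 20 reads left out, which removes low genes by construction, the embryo medians were 61.46, 54.80 and 69.36. Array columns gave 82.21 in the brain (odd), and 86.89 (even), 92.52 (odd) and 87.97 (without columns 1, 5, 9, 13, 17 and 21) in the control paw, where the share of spots gave 91.28. The cause was not tested. Without centring on the median gene, an alternative chosen after seeing the data, the median ratio of the Pax genes for the brain over the embryo was 0.70, against 0.04 with it. The call of Pax7 was lost there, at -0.36, and Pax1 passed 2-fold there and in embryo H3K27ac over H3K4me3, as did Pax7 in the control paw over the embryo; the other calls of Pax genes kept their side. Embryo sums were 5 to 50 reads for Pax1, Pax7, Pax8 and Pax9 under every mark, 30 and 39 for Pax3 under H3K27me3 and H3K27ac, and 50 for Pax6 under H3K4me3, which limits what these genes can show, the calls of Pax3 and Pax6 included.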
